A study of Mus musculus with 18 samples.

Results

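The 10 transcription factor genes followed here are shared by much of the blood system or by the conventional dendritic cells. They are Zbtb46, Spi1, Ikzf1, Ikzf3, Runx1, Runx3, Cebpa, Cebpb, Gfi1 and Myb. They were taken as a list of symbols, and all 10 were found among the 17903 genes listed for at least 1 of the 3 dendritic cell subsets that were sequenced. RNA came from cDC1, cDC2 and pDC sorted from mouse spleen. cDC1 and cDC2 are the conventional dendritic cells, which present antigen to CD8 and CD4 T cells, and pDC are the plasmacytoid dendritic cells, which secrete type I interferon. Per the labels, the knockout mice carried floxed HDAC1 alleles with Mx1-Cre, a recombinase under an interferon-inducible promoter that is not restricted to dendritic cells, and the control mice were HDAC1 floxed. Mice of both genotypes were given polyI:C, and their cells were sorted 2 weeks later. There were 6 groups of 3 samples, knockout and control in each subset. The labels give no age or strain and do not say which samples shared a mouse.

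The gate for cDC1 was XCR1+ and CD11b-, for cDC2 it was CD11b+ and XCR1-, and for pDC it was BST2+ with intermediate CD11c. All 3 gates were negative for lineage markers and CD64. The deposited columns carry codes that match no sample label. Each was therefore placed in the subset of its table, 6 libraries per subset, and was given no genotype. A genotype read from the order of the codes would have been an assumption and was not used, so the spread within each subset holds control and knockout samples together. Nothing in the labels says that the samples came from separate mice, and the p-values measure only the spread between these libraries.

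ZBTB46 is a BTB zinc finger protein that marks conventional dendritic cells and their committed precursors. PU.1, encoded by Spi1, is an ETS factor needed for myeloid, dendritic and B cell development, and its amount steers the choice among these fates. Ikaros and Aiolos, encoded by Ikzf1 and Ikzf3, are zinc finger factors of lymphoid development that recruit deacetylase-containing complexes. RUNX proteins bind DNA together with CBFB, RUNX1 in emerging blood stem cells and RUNX3 in cytotoxic T cells and other leukocytes. C/EBPα directs granulocyte and monocyte progenitors, and C/EBPβ acts in mature and emergency myelopoiesis. GFI1 is a repressor of neutrophil, lymphoid and stem cell programmes, and MYB maintains immature progenitors.

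The counts summed to about 23531000 to 37105000 per library in cDC1, 25673000 to 33821000 in cDC2 and 24453000 to 31773000 in pDC. Levels are CPM, the usual per-million count, after scaling library sizes by TMM, the trimmed mean of M-values. A count of 3, the most that an observed 0 leaves possible, was worth 0.0750 to 0.130 CPM in cDC1, 0.0934 to 0.125 CPM in cDC2 and 0.0827 to 0.118 CPM in pDC, for counting error only. The genes of the gate markers XCR1, CD11b and BST2, and the pDC gene Siglech, followed the table names, while some other subset markers did not. Xcr1 was 871 to 1121 CPM in cDC1, 6.80 to 10.4 CPM in cDC2 and 1.22 to 2.53 CPM in pDC. Itgam, which encodes CD11b, was 1.87 to 3.05 CPM in cDC1, 34.4 to 50.9 CPM in cDC2 and 0.394 to 3.11 CPM in pDC. Bst2 was 31.7 to 52.8 CPM in cDC1, 24.4 to 43.7 CPM in cDC2 and 1355 to 1957 CPM in pDC. The pDC receptor gene Siglech was 7.25 to 39.7 CPM in cDC1, 5.70 to 12.6 CPM in cDC2 and 7101 to 8963 CPM in pDC. By the test described below, 6 of 8 cDC1 markers were higher and 1 lower in cDC1 than in pDC. Of 8 cDC2 markers, 4 were higher and 3 lower in cDC2 than in pDC. The cDC2 markers summed to 1312 to 1666 CPM in cDC2 and 1526 to 2034 CPM in pDC. Hdac1, the targeted gene, was 5.58 to 77.4 CPM in cDC1, 6.03 to 83.4 CPM in cDC2 and 8.46 to 113 CPM in pDC, and it was not used to place any library. In sorted bulk RNA, fewer cells of a type and less RNA per cell cannot be told apart.

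Each pair of subsets was compared with edgeR's quasi-likelihood test over 13539 genes, with Benjamini-Hochberg adjustment over all of them, and a gene was called at an adjusted p below 0.05. Gfi1 entered the test only through cDC2, where it is highest, so the filter itself favoured a difference. It is left out of the counts that follow, which are over the other 9 factors. Between cDC1 and cDC2, 6 of the 9 were called, where 50.3% of all genes were. Of the 6, 1 was higher and 5 were lower in cDC1, beside 24.7% and 25.6% of all genes. Between cDC1 and pDC, 8 were called, 3 higher and 5 lower in cDC1, where 66.1% of all genes were called, 34.2% higher and 31.9% lower. Between cDC2 and pDC, 7 were called, 5 higher and 2 lower in cDC2, where 63.9% of all genes were called, 32.1% higher and 31.9% lower. These counts describe a short list chosen with earlier results known, and the list was not tested as a set. The same shares of all genes apply to the counts of every gene list below, and none of those lists was tested as a set. The median absolute log2 fold change of the 9 was 0.80 for cDC1 against cDC2, beside 0.37 over all genes tested. It was 1.60 beside 0.57 for cDC1 against pDC, and 1.09 beside 0.54 for cDC2 against pDC. At 2-fold or more, the calls were 2, 7 and 5 of the 9 in these comparisons, where 17.7%, 30.2% and 30% of all genes were called at that size. The ranges of the 6 libraries did not overlap for 6, 8 and 5 of the 9, beside 29%, 45.3% and 48.7% of all genes. The signed median over all genes was 0.01, 0.04 and 0.01 in the same comparisons.

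**Figure D1:**
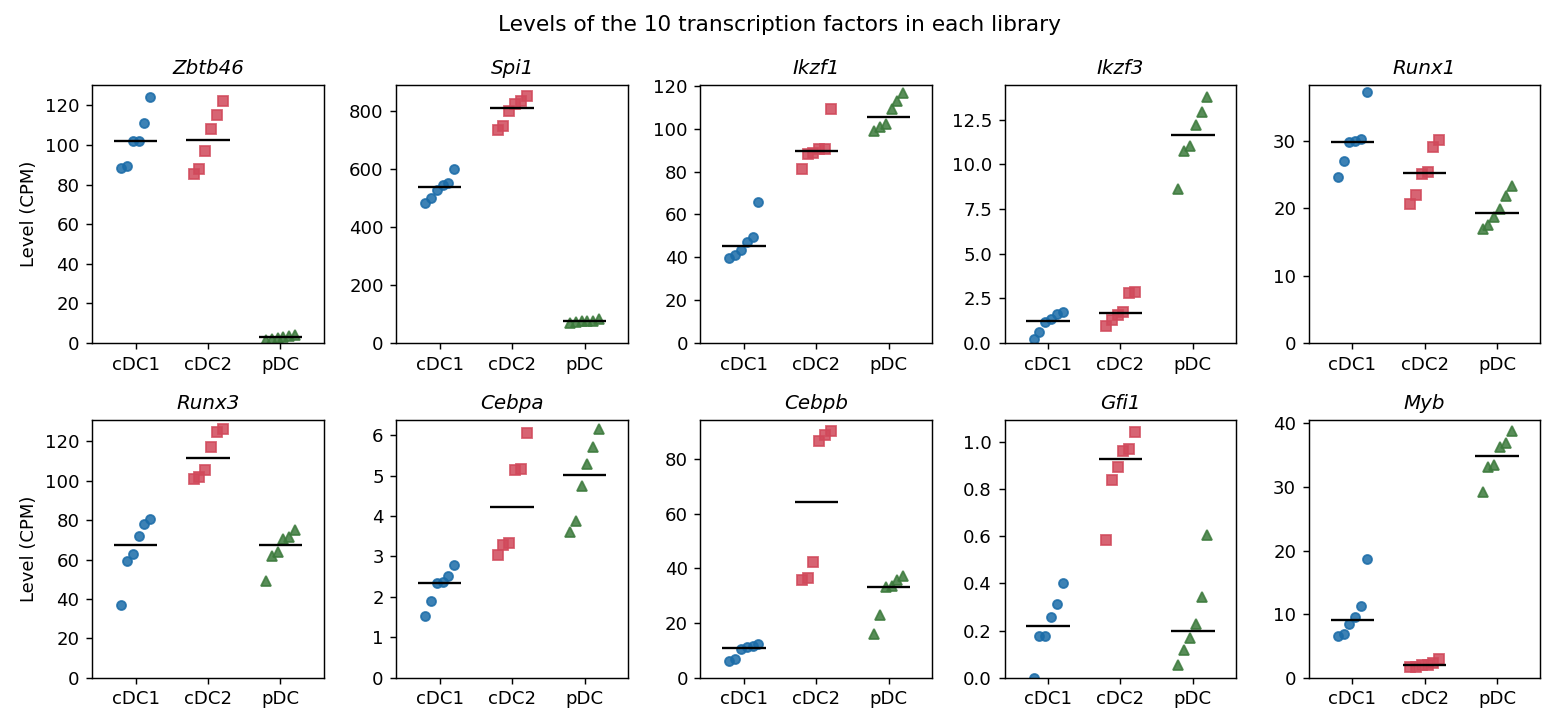
Level of each factor in every library, as CPM on a linear axis, with 6 libraries per subset for cDC1, cDC2 and pDC sorted by value and the median as a black line. Zbtb46 and Spi1 are low in all 6 pDC libraries, Ikzf3 and Myb are highest there, and Cebpb and Runx3 are highest in cDC2.

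Per kilobase of merged exon, a rough scale for setting different genes side by side, Spi1 ranked first of the 10 in every subset. The length merges the exons of all annotated transcripts, whether or not these cells use them, so ranks can depend on the annotation. Its median was 199 CPM per kb in cDC1, 301 CPM per kb in cDC2 and 27.7 CPM per kb in pDC. In cDC1 the next were Runx3 at 13.5 and Zbtb46 at 11.99 CPM per kb. In cDC2 the next were Cebpb at 42.8 and Runx3 at 22.3 CPM per kb. In pDC they were Cebpb at 22.1 and Ikzf1 at 18.3 CPM per kb, so the lead of Spi1 over the next factor was much smaller there. Runx1 stood lower on this scale, at 2.48, 2.10 and 1.61 CPM per kb in cDC1, cDC2 and pDC. Gfi1 was last in cDC1 at 0.0686 and in pDC at 0.0620 CPM per kb, and Ikzf3 was last in cDC2 at 0.189 CPM per kb.

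**Figure D2:**
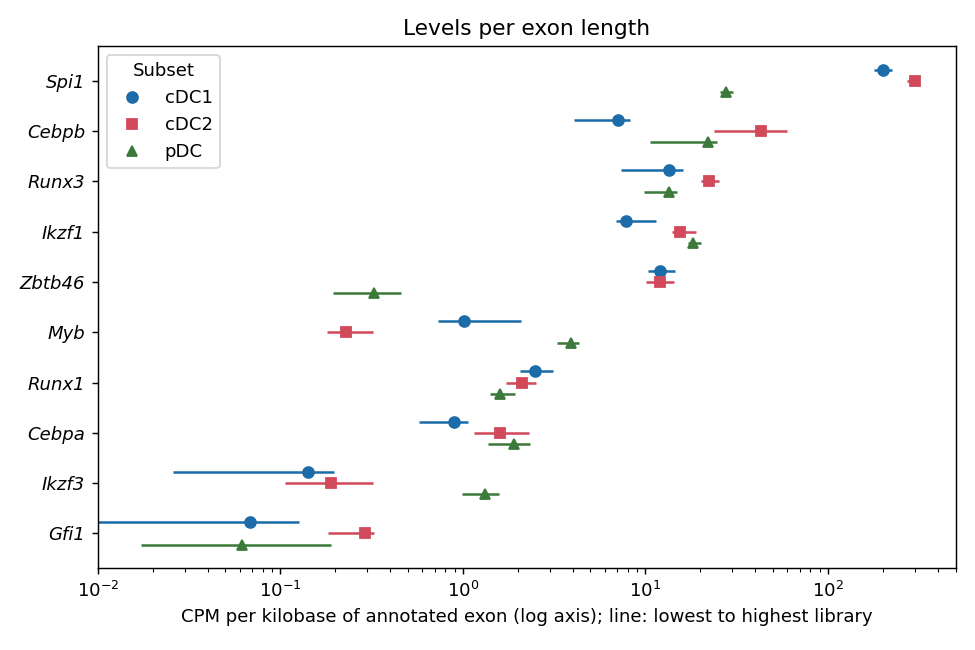
Median level of the 10 factors per kilobase of merged exon in cDC1, cDC2 and pDC, on a log axis in CPM per kb. Spi1 is first in each subset, at 199, 301 and 27.7 CPM per kb, and its distance to the second factor is smallest in pDC.

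Zbtb46 separated both conventional subsets from pDC and did not differ detectably between the conventional subsets. It had a lowest, median and highest level of 88.1, 102 and 124 CPM in the cDC1 libraries, 85.2, 103 and 122 CPM in the cDC2 libraries and 1.66, 2.76 and 3.90 CPM in the pDC libraries. The ranges of cDC1 and cDC2 lay almost on each other, and every pDC library was far below both. On the log2 scale, the fold change was 5.20 ± 0.17 (SE, 6 libraries per subset) for cDC1 against pDC, with an adjusted p of 7.69e-16, which is 36.9-fold. For cDC2 against pDC it was 5.20 ± 0.17 with an adjusted p of 6.93e-16, or 36.8-fold. For cDC1 against cDC2 it was 0.00 ± 0.14, with a 95% interval of -0.29 to 0.29 and an adjusted p of 0.99. Zbtb46 is a minus-strand gene of chromosome 2, 181387762 to 181459426 (GENCODE M21, GRCm38, as for the other genes).

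The RefSeq promoter window of Zbtb46 (GRCm38.p6, 300 bases, 250 before to 50 after the listed start) lies inside this gene body and is shown because Zbtb46 had the largest difference of the 10. Capitals mark an E2 box, the class of site bound by E proteins such as TCF4, the pDC factor. The E2 box was searched as CAGGTG on both strands and is seen here as its reverse complement, with its first base at position -238 relative to the start.
Zbtb46, chr2:181424339-181424638, minus strand: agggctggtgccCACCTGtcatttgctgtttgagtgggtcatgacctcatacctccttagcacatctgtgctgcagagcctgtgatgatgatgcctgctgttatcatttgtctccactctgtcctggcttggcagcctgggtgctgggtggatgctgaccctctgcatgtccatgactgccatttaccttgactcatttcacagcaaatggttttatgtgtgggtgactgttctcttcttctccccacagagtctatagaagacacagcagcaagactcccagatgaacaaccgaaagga
The same motif was present in 20.2% of all 32851 promoters of this length. Counted by gene, at least 1 promoter held it in 22.6% of 27025 genes and in 4 of the 8 factors with an entry (Zbtb46, Runx1, Runx3 and Gfi1). A match describes these letters only.

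Among other BTB zinc finger genes, 13 of 14 were tested. In cDC1, 2 were higher and 7 lower than in cDC2, 4 were higher and 4 lower than in pDC, and in cDC2 5 were higher and 3 lower than in pDC. With library totals alone these last splits were 3 against 7 and 5 against 6, so their balance rests on the scaling. Zbtb16, which encodes PLZF, averaged 0.304 CPM in cDC1, 1.61 CPM in cDC2 and 0.0510 CPM in pDC, and the pDC mean lies below the 3-count floor. Bcl6, a repressor that supports conventional dendritic cells, averaged 33.4 CPM in cDC1 and 7.41 CPM in pDC, a log2 fold change of 2.18 ± 0.13 with an adjusted p of 2.78e-12. Bach2, a repressor of lymphocyte effector programmes, averaged 3.89 CPM in cDC2 and 12.97 CPM in pDC, a log2 fold change of -1.74 ± 0.18 with an adjusted p of 3.12e-08.

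Spi1 differed between all 3 subsets, in the order cDC2, cDC1, pDC. Its lowest, median and highest levels were 484, 537 and 601 CPM in cDC1, 734, 812 and 852 CPM in cDC2, and 69.1, 74.6 and 81.1 CPM in pDC. No range overlapped another. The log2 fold change of cDC1 against cDC2 was -0.58 ± 0.07 with an adjusted p of 3.45e-07. That of cDC1 against pDC was 2.84 ± 0.07 with an adjusted p of 4.43e-18, or 7.17-fold, and that of cDC2 against pDC was 3.42 ± 0.07 with an adjusted p of 6.37e-19, or 10.7-fold. The 6 libraries of each subset were close to one another for this gene. Its coefficient of variation was 7.78% in cDC1, 5.96% in cDC2 and 5.53% in pDC, where the median over all genes tested was 18.7%, 15.2% and 12.9%. Spi1 is a plus-strand gene of chromosome 2 (91082390 to 91115756) and overlaps no other annotated gene.

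Spib encodes the closest ETS relative of PU.1, a factor of B cells and pDC. It ran opposite to Spi1 against pDC only. Between cDC1 and cDC2 both were lower in cDC1, with a log2 fold change of -1.77 ± 0.20 for Spib (adjusted p = 6.40e-07). Spib had a lowest, median and highest level of 11.6, 13.8 and 23.1 CPM in cDC1, 37.5, 47.2 and 86.6 CPM in cDC2, and 406, 471 and 481 CPM in pDC. The log2 ratio of Spib to Spi1 within a library does not depend on how libraries are scaled. It ran from -5.69 to -4.56 in cDC1, from -4.36 to -3.25 in cDC2 and from 2.32 to 2.80 in pDC, so Spib counts exceeded Spi1 counts in every pDC library and in no conventional library. At the median, the Spib count was 6.41 times the Spi1 count in pDC. The Spi1 count was 36.9 times the Spib count in cDC1 and 17.3 times in cDC2. These counts were not divided by exon length. The 3 differences in mean log2 ratio were -1.17 for cDC1 against cDC2, -7.79 for cDC1 against pDC and -6.62 for cDC2 against pDC. Each had an adjusted p of 0.00325 in a two-sided exact permutation test over 12 ratio comparisons, and the unadjusted p of 0.00216 is the smallest that 6 against 6 libraries allow.

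**Figure D3:**
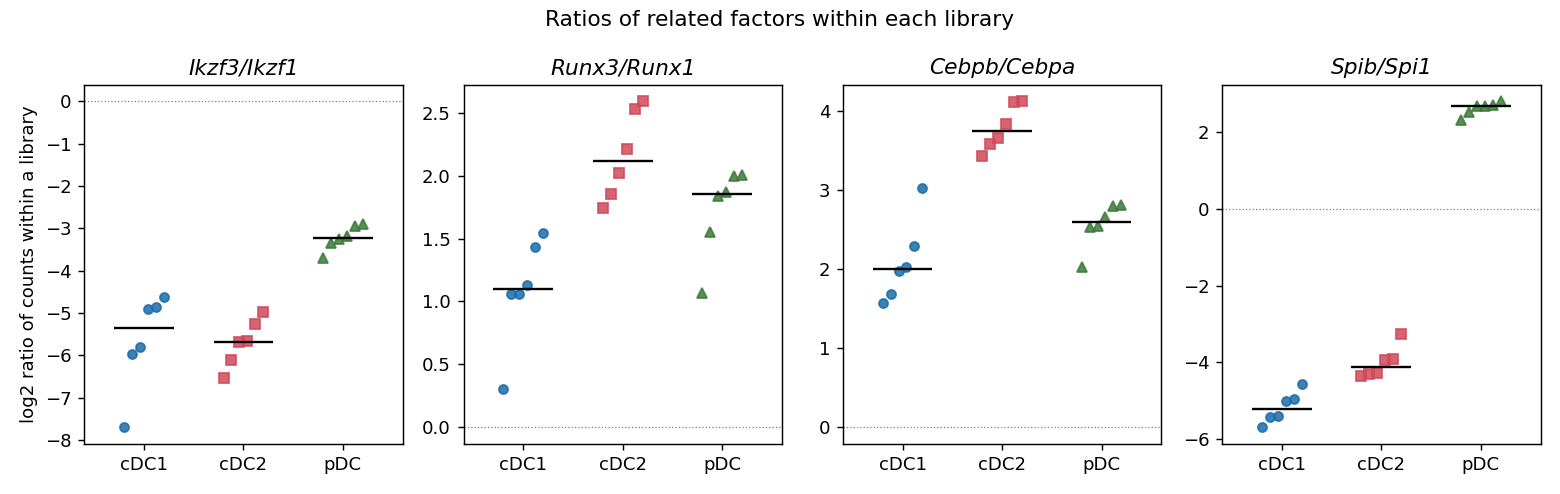
Log2 ratio of counts of related genes within each library (Ikzf3/Ikzf1, Runx3/Runx1, Cebpb/Cebpa and Spib/Spi1), 6 libraries each for cDC1, cDC2 and pDC sorted by value, with the median as a black line. Spib/Spi1 is above 0 only in pDC, from 2.32 to 2.80, and Cebpb/Cebpa is highest in cDC2, from 3.43 to 4.12.

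Of 14 other ETS genes, 13 were tested. Against cDC2, 1 was higher and 5 were lower in cDC1. Against pDC, 5 were higher and 7 lower in cDC1, and 6 were higher and 6 lower in cDC2. Ets1, a lymphocyte ETS factor, averaged 5.07 CPM in cDC1, 6.11 CPM in cDC2 and 81.8 CPM in pDC, a log2 fold change of -4.01 ± 0.21 for cDC1 against pDC (adjusted p = 2.41e-12) and -3.75 ± 0.21 for cDC2 against pDC (adjusted p = 5.63e-12). Spic, which is needed for splenic red pulp macrophages, averaged 49.7 CPM in cDC1, 70.9 CPM in cDC2 and 2.28 CPM in pDC. Etv3, an ETS repressor, averaged 153 CPM in cDC1, 189 CPM in cDC2 and 11.7 CPM in pDC, and both Spic and Etv3 were called against pDC.

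Genes known as PU.1 targets were called in both directions. Of 10, 2 were higher and 4 lower in cDC1 than in cDC2, while 6 were higher and 3 lower in cDC1 than in pDC, and 6 were higher and 3 lower in cDC2 than in pDC. The list had a median log2 fold change of -0.02 for cDC1 against cDC2, 0.66 for cDC1 against pDC and 0.93 for cDC2 against pDC. Itgam, among the 10, encodes the gate marker CD11b, so its part in these counts and medians is not independent of the sort. For cDC1 against cDC2 its log2 fold change was -3.96 ± 0.27 (adjusted p = 3.43e-10). Csf1r, the receptor for the macrophage growth factor CSF1, had a lowest, median and highest level of 17.0, 20.4 and 23.3 CPM in cDC1, 110 (109.8), 242 and 365 CPM in cDC2, and 1.42, 1.73 and 2.58 CPM in pDC. Its order was therefore that of Spi1, with a log2 fold change of 6.98 ± 0.39 for cDC2 against pDC (adjusted p = 2.28e-11). Il7r, the interleukin 7 receptor, and Cybb, the NADPH oxidase subunit, went the other way. For cDC1 against pDC their log2 fold changes were -4.17 ± 0.20 (Il7r, adjusted p = 6.64e-13) and -4.25 ± 0.22 (Cybb, adjusted p = 1.07e-12).

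Ikzf1 was lower in cDC1 than in cDC2 and pDC. Its lowest, median and highest levels were 39.7, 45.2 and 66.1 CPM in cDC1, 81.0, 89.6 and 109 CPM in cDC2, and 99.2, 106 and 117 CPM in pDC. Every cDC1 library was below every library of the other subsets, while cDC2 and pDC overlapped. Expressed as a log2 fold change, the difference was -0.94 ± 0.10 for cDC1 against cDC2 (adjusted p = 1.66e-07) and -1.16 ± 0.10 for cDC1 against pDC (adjusted p = 2.69e-09). For cDC2 against pDC it was -0.23 ± 0.10, with a 95% interval of -0.44 to -0.01 and an adjusted p of 0.0588, which was not called. This last comparison depends on single libraries. It was called without the cDC1 library coded a157 (adjusted p = 0.0119) and without the cDC2 libraries coded a158 (adjusted p = 0.0457) and a161 (adjusted p = 0.0217). It was also called with library totals in place of TMM, at -0.43 and an adjusted p of 0.00383, and in a fit of the 12 libraries of cDC2 and pDC alone, with an adjusted p of 0.0116. Ikzf1 is a plus-strand gene of chromosome 11 (11685003 to 11772926).

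Ikzf3 was a pDC gene among these subsets. It had 0.225, 1.24 and 1.73 CPM at the lowest, median and highest library in cDC1, 0.934, 1.66 and 2.83 CPM in cDC2, and 8.64, 11.6 and 13.8 CPM in pDC. All pDC libraries lay above all others, and cDC1 overlapped cDC2. Its log2 fold change was -3.40 ± 0.35 for cDC1 against pDC (adjusted p = 4.12e-08), 10.5-fold in favour of pDC, and -2.64 ± 0.34 for cDC2 against pDC (adjusted p = 8.19e-07), 6.23-fold in favour of pDC. For cDC1 against cDC2 it was -0.76 ± 0.35, with a 95% interval of -1.49 to -0.03 and an adjusted p of 0.0789. That comparison was called with DESeq2 (adjusted p = 0.0461), without the cDC1 library coded a163 (adjusted p = 0.0425) and without the cDC2 library coded a173 (adjusted p = 0.0382). Counts behind these values were low in cDC1, from 9 to 45 per library, against 229 to 487 in pDC. Ikzf3 is a minus-strand gene of chromosome 11 (98464902 to 98546031).

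The log2 ratio of Ikzf3 to Ikzf1 was -7.70 to -4.63 in cDC1, -6.54 to -4.97 in cDC2 and -3.71 to -2.89 in pDC. It was lower by a mean of 2.43 in cDC1 than in pDC and by 2.48 in cDC2 than in pDC, with an adjusted p of 0.00325 each in the exact permutation test. Between cDC1 and cDC2 the mean difference was 0.06 with an adjusted p of 0.916. The share of Ikzf3 relative to Ikzf1 thus set pDC apart, although Ikzf1 counts were larger in every library.

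Ikzf3 is also high in B and plasma cells. The 7 B cell markers summed to 132 to 186 CPM in cDC1, 91.4 to 111 CPM in cDC2 and 79.3 to 143 CPM in pDC. Pax5, the defining B cell factor, reached no more than 0.683 CPM in any library, while Cd79b, a B cell receptor subunit gene, had medians of 26.4 CPM in cDC1, 54.9 CPM in cDC2 and 93.6 CPM in pDC. Of 6 tested B cell markers, 4 were higher and 1 was lower in cDC1 than in pDC, and 2 were higher and 3 lower in cDC2 than in pDC. The 4 plasma cell markers summed to 21.2 to 333 CPM in cDC1, 1.56 to 22.1 CPM in cDC2 and 138 to 346 CPM in pDC. Of these, Mzb1 and Sdc1 were higher in pDC, at medians of 4.54 CPM in cDC1, 0.850 CPM in cDC2 and 127 CPM in pDC for Mzb1 and 0.415, 0.171 and 16.8 CPM for Sdc1. Jchain did not share that order, with medians of 132 (131.5) CPM in cDC1, 8.37 CPM in cDC2 and 89.4 CPM in pDC. Tnfrsf17 was listed for cDC1 and pDC only and entered the cDC2 sum as 0, and since no listed gene had fewer than 10 counts over its table, lower counts there remain possible. The part of such cells in the Ikzf3 result was not tested.

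The other Ikaros family genes were Ikzf2, Ikzf4 and Ikzf5. Ikzf2, which encodes Helios, had medians of 2.45 CPM in cDC1, 1.39 CPM in cDC2 and 10.03 CPM in pDC. It was higher in cDC1 than in cDC2 by a log2 fold change of 1.01 ± 0.22 (adjusted p = 0.00052), and lower than in pDC by -1.96 ± 0.21 in cDC1 (adjusted p = 3.69e-08) and by -2.97 ± 0.22 in cDC2 (adjusted p = 1.30e-10). Ikzf4, which encodes Eos, ran the other way, at mean levels of 1.01 CPM in cDC2 and 0.106 CPM in pDC. Its counts were 18 to 38 per library in cDC2 and 1 to 8 in pDC. Its cDC2 counts were what brought it past the filter, so no test against cDC2 is given. Ikzf2 thus shared the high pDC level of Ikzf3, and Ikzf4 did not.

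Known Ikaros targets were covered by 4 tested genes of 6. Dntt, the terminal transferase gene of lymphoid precursors, was listed for cDC2 and pDC only and was not tested, with medians of 0.0349 CPM in cDC2 and 160.97 CPM in pDC. Of the 4, none was higher and 3 were lower in cDC1 than in cDC2, and 2 were higher and 2 lower than in pDC in both conventional subsets. Hes1 and Dtx1, Notch response genes, averaged 25.7 and 2.86 CPM in cDC1, 77.6 and 106 CPM in cDC2 and 0.569 and 0.460 CPM in pDC. Notch3 and Vpreb1, the pre-B cell receptor surrogate light chain gene, were lower than in pDC in both. Vpreb1 had 29 to 50 counts per library in pDC, but 0 to 7 in cDC1 and 1 to 12 in cDC2. Its pDC counts brought it past the filter, so the filter itself favoured that difference. For Notch3 the log2 fold change was -3.96 ± 0.32 in cDC1 (adjusted p = 4.59e-10) and -2.58 ± 0.29 in cDC2 (adjusted p = 8.70e-08).

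**Figure D4:**
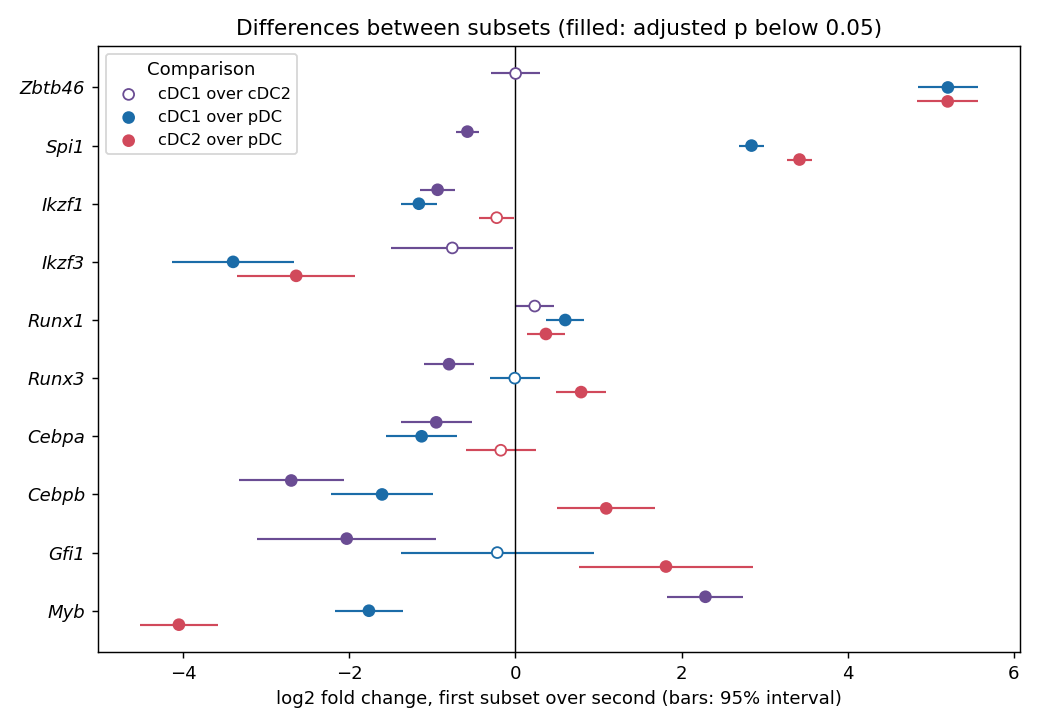
Log2 fold change of each factor for cDC1 against cDC2, cDC1 against pDC and cDC2 against pDC, with 95% intervals as bars and filled points where the adjusted p is below 0.05. Zbtb46 and Spi1 lie far above 0 against pDC, Ikzf3 and Myb far below it, and Cebpb is lowest for cDC1 against cDC2 at -2.70, while Gfi1 passed the count filter only through cDC2.

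Runx1 differed little between the subsets. It had 24.7, 29.9 and 37.3 CPM at the lowest, median and highest library in cDC1, 20.7, 25.2 and 30.1 CPM in cDC2, and 16.9, 19.3 and 23.3 CPM in pDC. The order was cDC1, cDC2, pDC, and cDC2 overlapped both neighbours. The log2 fold change of cDC1 against pDC was 0.60 ± 0.11 with an adjusted p of 7.15e-05. That of cDC2 against pDC was 0.37 ± 0.11 with an adjusted p of 0.00661, and it was no longer called with library totals in place of TMM, at 0.17 and an adjusted p of 0.261. That of cDC1 against cDC2 was 0.23 ± 0.11, with a 95% interval of 0.00 to 0.46 and an adjusted p of 0.0866. It was called without the cDC1 library coded a169 (adjusted p = 0.0440) or the cDC2 library coded a161 (adjusted p = 0.0426). With library totals, all genes shifted by a median of -0.21 on the log2 scale in both comparisons with pDC, and the share of calls that were higher in the conventional subset was 38.6% for cDC1 and 37.3% for cDC2, against 51.7% and 50.2% with TMM.

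Runx3 was higher in cDC2 than in both other subsets. Its lowest, median and highest levels were 36.9, 67.5 and 80.4 CPM in cDC1, 101, 111 and 127 CPM in cDC2, and 48.9, 67.2 and 74.8 CPM in pDC. No cDC2 library was within the range of cDC1 or pDC, and those ranges overlapped. In log2 fold change, this was -0.80 ± 0.14 for cDC1 against cDC2 (adjusted p = 0.000101) and 0.79 ± 0.14 for cDC2 against pDC (adjusted p = 6.70e-05). For cDC1 against pDC it was -0.01 ± 0.14, with a 95% interval of -0.31 to 0.29 and an adjusted p of 0.965. The lowest cDC1 library, coded a160, stood at 36.9 CPM where the next was at 59.1 CPM, and without it this last value was 0.11.

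The log2 ratio of Runx3 to Runx1 had medians of 1.10 in cDC1, 2.11 in cDC2 and 1.86 in pDC, and Runx3 counts were larger than Runx1 counts in all 18 libraries. The mean ratio was lower in cDC1 than in cDC2 by 1.07 (adjusted p = 0.00325, exact permutation test). For cDC1 against pDC it differed by -0.64 with an adjusted p of 0.0231 in the same exact test. That call was lost without any of the pDC libraries coded a164, a168, a171 or a174, with adjusted p from 0.0577 to 0.0606. For cDC2 against pDC the difference was 0.44 with an adjusted p of 0.0727 in the exact test, called only without the cDC2 library coded a161, with an adjusted p of 0.0416.

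Runx1 is a minus-strand gene of chromosome 16 (92601466 to 92826149) and Runx3 a plus-strand gene of chromosome 4 (135120652 to 135177990). The distal promoter windows of both genes are shown because they hold the same pair of RUNX sites, although the genes differed in level across subsets. Capitals mark the RUNX site TGTGGT, searched on both strands and seen here as its reverse complement. Both windows are from RefSeq on GRCm38.p6 and run 250 bases before to 50 after the start.
Runx1, chr16:92826025-92826324, minus strand: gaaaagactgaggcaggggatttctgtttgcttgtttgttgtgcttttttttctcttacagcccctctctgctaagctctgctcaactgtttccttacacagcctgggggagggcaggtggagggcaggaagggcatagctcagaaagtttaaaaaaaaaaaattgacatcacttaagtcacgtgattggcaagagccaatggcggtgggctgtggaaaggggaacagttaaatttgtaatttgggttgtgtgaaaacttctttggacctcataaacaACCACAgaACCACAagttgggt
Runx3, chr4:135120395-135120694, plus strand: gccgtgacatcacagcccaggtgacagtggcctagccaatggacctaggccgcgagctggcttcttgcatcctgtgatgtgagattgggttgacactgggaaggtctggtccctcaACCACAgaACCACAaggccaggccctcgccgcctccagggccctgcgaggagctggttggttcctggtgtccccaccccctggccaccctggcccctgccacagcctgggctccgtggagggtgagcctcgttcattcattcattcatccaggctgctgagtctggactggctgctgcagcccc
The first bases of the paired sites lie 8 bases apart in each gene, at positions 29 and 37 relative to the start in Runx1 and at -134 and -126 in Runx3. A RUNX site was present in 16.8% of all 32851 promoters, and a pair at this spacing in 20 of them, or 0.0609%. Of the 8 factors with a promoter entry, only Runx1 and Runx3 held the site, beside 18.9% of all 27025 genes. The PU.1 box GAGGAAGT was in 3.2% of all promoters, or 3.69% of genes, and in none of the promoters of the 8 factors. The MYB site AACGG was in 17.4% of promoters, or 19.6% of genes, and among the factors in Cebpa and Cebpb. The C/EBP site TTGCNNAA was in 10.8% of promoters, or 12.2% of genes, and among the factors in Gfi1. No other motif searched overlaps the marked sites.

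The third RUNX gene, Runx2, a factor of bone and of pDC, showed the largest difference in its family. Runx2 had a lowest, median and highest level of 6.72, 9.63 and 14.1 CPM in cDC1, 17.5, 19.7 and 21.6 CPM in cDC2, and 257, 303 and 348 CPM in pDC. The log2 fold change was -1.02 ± 0.13 for cDC1 against cDC2 (adjusted p = 1.39e-06), -4.96 ± 0.15 for cDC1 against pDC (adjusted p = 5.92e-17) and -3.94 ± 0.14 for cDC2 against pDC (adjusted p = 9.60e-16). Cbfb, the shared DNA-binding partner, had medians of 99.2 CPM in cDC1, 118 CPM in cDC2 and 61.8 CPM in pDC. It was lower in pDC, by a log2 fold change of 0.64 ± 0.07 for cDC1 against pDC (adjusted p = 7.77e-08). In all, 4 of 5 family and partner genes were tested. Against pDC, 2 were higher and 2 lower in each conventional subset.

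RUNX targets are best known from T cells. Of 6, 3 were higher and 2 lower in cDC1 than in cDC2, 1 was higher and 5 were lower than in pDC, and in cDC2 none was higher and 5 were lower than in pDC. Itgae, the integrin gene activated by RUNX3 in CD8 T cells, averaged 21.4 CPM in cDC1, 0.620 CPM in cDC2 and 0.291 CPM in pDC. Cd4, which RUNX proteins silence in CD8 T cells, averaged 8.15 CPM in cDC1, 141 CPM in cDC2 and 246 CPM in pDC. Itgae, Cd4 and the chemokine receptor gene Ccr9 are also subset markers, so they are not independent of how the subsets are recognised.

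**Figure D5:**
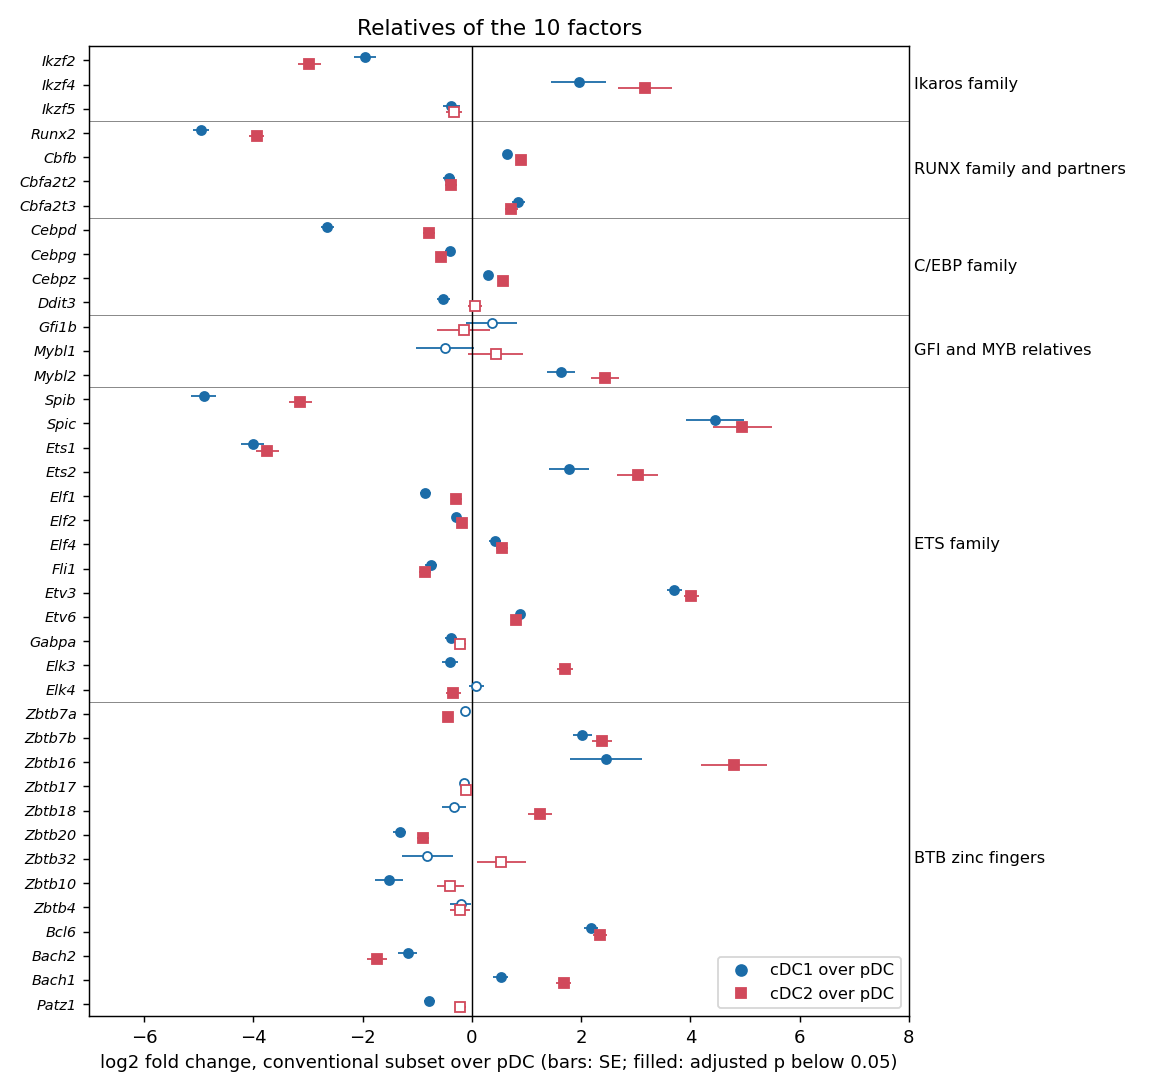
Log2 fold change of all tested family members of the factors for cDC1 over pDC (circles) and cDC2 over pDC (squares), with standard errors as bars and filled marks where the adjusted p is below 0.05. Runx2, Spib and Ikzf2 are lower in cDC1 and cDC2 than in pDC, at -4.96 and -3.94 for Runx2, while Etv3 and Spic are higher.

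Cebpb was highest in cDC2 and lowest in cDC1. It had 6.11, 10.7 and 12.4 CPM at the lowest, median and highest library in cDC1, 35.6, 64.4 and 90.2 CPM in cDC2, and 15.9, 33.3 and 37.3 CPM in pDC. Every cDC1 library was below every other library, and the ranges of cDC2 and pDC overlapped. Expressed as a log2 fold change, the difference was -2.70 ± 0.30 for cDC1 against cDC2 (adjusted p = 5.73e-07), 6.49-fold in favour of cDC2. It was -1.60 ± 0.29 for cDC1 against pDC (adjusted p = 9.37e-05) and 1.09 ± 0.28 for cDC2 against pDC (adjusted p = 0.00227). Within cDC2 the coefficient of variation was 43.8%, higher than in 88.7% of all genes tested. The cDC2 libraries lay at 35.6, 36.5 and 42.2 CPM and at 86.5, 89.0 and 90.2 CPM, with none near the median. Cebpb is a plus-strand gene of chromosome 2 (167688915 to 167690418) with a single exon. The opposite-strand gene Tmem189 shares 312 of its bases, 20.7%, and the sources used here do not say whether counting used strand.

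Cebpa was low throughout and lowest in cDC1. Its lowest, median and highest levels were 1.51, 2.35 and 2.80 CPM in cDC1, 3.04, 4.23 and 6.05 CPM in cDC2, and 3.61, 5.02 and 6.15 CPM in pDC. All cDC1 libraries were below all others, and cDC2 and pDC overlapped widely. Its log2 fold change was -0.95 ± 0.21 for cDC1 against cDC2 (adjusted p = 0.000601) and -1.13 ± 0.21 for cDC1 against pDC (adjusted p = 6.02e-05). For cDC2 against pDC it was -0.18 ± 0.20, with a 95% interval of -0.59 to 0.24 and an adjusted p of 0.461. Cebpa, also a single-exon gene, is a plus-strand gene of chromosome 7 (35119293 to 35121928).

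The log2 ratio of Cebpb to Cebpa was 1.57 to 3.02 in cDC1, 3.43 to 4.12 in cDC2 and 2.03 to 2.81 in pDC. The mean was lower in cDC1 than in cDC2 by 1.69, and it was higher in cDC2 than in pDC by 1.23, with an adjusted p of 0.00325 each in the exact permutation test. Between cDC1 and pDC the difference was -0.47 with an adjusted p of 0.0897 in the exact test. Without the cDC1 library coded a166 it was -0.65 and was called, with an adjusted p of 0.0115.

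Cebpd, an acute-phase member of the family, followed another order than Cebpb. It rose from cDC1 to cDC2 to pDC, as the medians of Cebpa did. It had 3.91, 5.84 and 7.07 CPM at the lowest, median and highest library in cDC1, 17.1, 20.8 and 22.3 CPM in cDC2, and 29.7, 33.8 and 42.3 CPM in pDC. In log2 fold change, this was -1.86 ± 0.12 for cDC1 against cDC2 (adjusted p = 9.29e-11), -2.64 ± 0.13 for cDC1 against pDC (adjusted p = 1.08e-13) and -0.78 ± 0.12 for cDC2 against pDC (adjusted p = 5.50e-06). Of 4 tested relatives among 5, none was higher and 3 were lower in cDC1 than in cDC2. Cebpe was not tested, having too few counts.

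C/EBP targets of mature myeloid cells were covered by 6 tested genes of 9. None was higher and 4 were lower in cDC1 than in cDC2, and 4 were higher and none was lower than in pDC in both cDC1 and cDC2. Il1b, the inflammatory cytokine, had medians of 1738 CPM in cDC1, 6232 CPM in cDC2 and 15.8 CPM in pDC. Lyz2, which encodes lysozyme, had medians of 1296 CPM in cDC1, 4114 CPM in cDC2 and 23.1 CPM in pDC. Csf3r, the granulocyte growth factor receptor, had medians of 1.81 CPM in cDC1, 11.4 CPM in cDC2 and 0.427 CPM in pDC. Their order thus placed pDC last, whereas Cebpb and Cebpa were lowest in cDC1.

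Neutrophils and monocytes express these factors and targets too. The 7 neutrophil markers summed to 293 to 1271 CPM in cDC1, 42.9 to 170 (169.9) CPM in cDC2 and 11.7 to 255 CPM in pDC. The defining marker Ly6g reached 3.98 CPM in cDC1, 0.436 CPM in cDC2 and 1.35 CPM in pDC. The 8 monocyte and macrophage markers summed to 1068 to 2798 CPM in cDC1, 3035 to 10690 CPM in cDC2 and 6258 to 7468 CPM in pDC. In cDC1 and cDC2 most of that sum was Lyz2, at 848 to 2368 CPM and 2562 to 10038 CPM. Lyz2, and Csf3r among the neutrophil markers, are also C/EBP targets above, so these sums are not separate from the target results. In pDC most of the monocyte and macrophage sum was Ly6c2, with a median of 6458 CPM, a gene that pDC express. Adgre1, a macrophage gene, had medians of 6.72 CPM in cDC1, 211 CPM in cDC2 and 1.23 CPM in pDC. The part of neutrophils, monocytes and macrophages in these results was not tested.

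Gfi1 was near the limit of detection. Its counts were 0 to 10 per library in cDC1, 14 to 27 in cDC2 and 2 to 16 in pDC. Its lowest, median and highest levels were 0, 0.219 and 0.402 CPM in cDC1, 0.583, 0.928 and 1.04 CPM in cDC2, and 0.0552, 0.198 and 0.604 CPM in pDC. All cDC2 libraries were above all cDC1 libraries, and the highest pDC library was above the lowest cDC2 library. Its cDC2 counts were what brought it past the filter, so no test against cDC2 is given. For cDC1 against pDC the log2 fold change was -0.22 ± 0.56, with a 95% interval of -1.38 to 0.94 and an adjusted p of 0.743. Gfi1 is a minus-strand gene of chromosome 5 (107716657 to 107726036).

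GFI1 represses Id and Egr genes among others, and 7 such targets were tested. In cDC1, 2 were higher and 3 lower than in cDC2, and 4 were higher and 2 lower than in pDC, and in cDC2 4 were higher and 1 was lower than in pDC. Id2, an inhibitor of E proteins, averaged 2211 CPM in cDC1, 793 CPM in cDC2 and 21.3 CPM in pDC, a log2 fold change of 6.70 ± 0.18 for cDC1 against pDC (adjusted p = 8.29e-18). Hoxa9, a stem and progenitor homeobox gene, averaged 0.147 CPM in cDC1, 0.194 CPM in cDC2 and 2.48 CPM in pDC. The paralog Gfi1b was called in none of the comparisons.

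Myb was highest in pDC, intermediate in cDC1 and lowest in cDC2. It had 6.55, 9.04 and 18.7 CPM at the lowest, median and highest library in cDC1, 1.61, 2.05 and 2.86 CPM in cDC2, and 29.2, 34.9 and 38.7 CPM in pDC. No range overlapped another. The log2 fold change was 2.29 ± 0.22 for cDC1 against cDC2 (adjusted p = 2.92e-08), or 4.88-fold. It was -1.76 ± 0.20 for cDC1 against pDC (adjusted p = 1.28e-07), 3.39-fold in favour of pDC, and -4.05 ± 0.23 for cDC2 against pDC (adjusted p = 2.41e-12), 16.6-fold in favour of pDC. Of the 10, only Myb was called higher in cDC1 than in cDC2 in the fit of all 18 libraries. It is a minus-strand gene of chromosome 10 (21124935 to 21160984), and an antisense gene shares 559 of its exon bases, 6.26%.

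Mybl2, the cell cycle relative of Myb, ran against it. Its mean was 3.68 CPM in cDC1, 6.45 CPM in cDC2 and 1.18 CPM in pDC. Its log2 fold change was -0.81 ± 0.25 for cDC1 against cDC2 (adjusted p = 0.0089), 1.63 ± 0.26 for cDC1 against pDC (adjusted p = 1.23e-05) and 2.44 ± 0.26 for cDC2 against pDC (adjusted p = 5.10e-08).

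Of 6 MYB targets, 1 was higher and 3 were lower in cDC1 than in cDC2, 4 were higher and 1 lower in cDC1 than in pDC, and 3 were higher and 1 lower in cDC2 than in pDC. Kit, the stem cell factor receptor, had a lowest, median and highest level of 53.7, 64.9 and 104 CPM in cDC1, 133, 155 and 179 CPM in cDC2, and 4.49, 7.99 and 9.76 CPM in pDC. This order is the reverse of that of Myb. Myc averaged 13.1 CPM in cDC1, 22.4 CPM in cDC2 and 0.944 CPM in pDC, with a log2 fold change of 3.78 ± 0.28 for cDC1 against pDC (adjusted p = 2.33e-10). Cdk6, a kinase of cycling progenitors, was lower than in pDC, by a log2 fold change of -0.70 ± 0.14 in cDC1 (adjusted p = 0.00017) and -0.35 ± 0.14 in cDC2 (adjusted p = 0.0349).

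Markers of progenitors, which express Myb, summed to 102 to 146 CPM in cDC1, 166.6 to 229 CPM in cDC2 and 48.1 to 59.7 CPM in pDC over 8 genes, and Kit made up most of the sum in cDC1 and cDC2. Cd34 had medians of 3.92 CPM in cDC1, 3.91 CPM in cDC2 and 1.06 CPM in pDC. Cd27 had 4.58 CPM in cDC1, 3.10 CPM in cDC2 and 8.37 CPM in pDC, the same order as Myb, and Sox4 had 26.4, 15.2 and 25.6 CPM. Ctsg was listed for cDC1 and cDC2 only. The part of progenitors in the Myb result was not tested. T cells can express Myb too. The 6 T cell markers summed to 28.8 to 75.3 CPM in cDC1, 5.69 to 11.7 CPM in cDC2 and 347 to 875 CPM in pDC, the same order as Myb. In pDC most of that sum was Cd8b1, with a median of 703 CPM. Cd28 had medians of 1.24 CPM in cDC1, 0.266 CPM in cDC2 and 35.4 CPM in pDC, and Cd3e had 1.35, 0.503 and 0.347 CPM. The part of T cells in the Myb result was not tested.

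The factors recruit shared cofactors, among them NuRD, SIN3, CoREST, NCoR, TLE and CtBP proteins. Of 25 cofactor genes, 7 were higher and 4 lower in cDC1 than in cDC2, where 50.3% of all genes were called. None of these cofactor calls reached 2-fold. Against pDC, 7 were higher and 8 lower in cDC1, and 7 were higher and 10 lower in cDC2, where 66.1% and 63.9% of all genes were called. With library totals alone those splits were 3 against 15 and 3 against 11. Ctbp2 averaged 16.0 CPM in cDC1, 8.43 CPM in cDC2 and 1.96 CPM in pDC, a log2 fold change of 3.01 ± 0.20 for cDC1 against pDC (adjusted p = 2.31e-11). Rbbp7, a histone-binding subunit of NuRD and SIN3, averaged 352 CPM in cDC1, 298 CPM in cDC2 and 140 (139.8) CPM in pDC. Rcor2, a CoREST subunit, averaged 0.251 CPM in cDC1, 0.169 CPM in cDC2 and 0.9746 CPM in pDC.

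The genes with the pattern most like each factor were ranked by Pearson's r of log2 CPM over the 18 libraries, among 9364 genes with a mean of at least 5 CPM. The libraries fall into 3 subsets, so these values describe mainly the subset means and carry no p. For Zbtb46 the closest were Klri1 at 0.996, Efhd2 at 0.994 and Hfe at 0.994. For Spi1 they included Bcl2a1b at 0.997 and H2-M2 at 0.995. Myb was followed by Pdgfa at 0.982 and Frmd4a at 0.977, Ikzf3 by A530064D06Rik at 0.972 and Smim11 at 0.970, and Ikzf1 by Scn3a at 0.969. For Cebpb the closest was Gpx4 at 0.968, for Cebpa Mgl2 at 0.929, for Runx1 Ino80d at 0.924, for Runx3 Clcf1 at 0.924 and for Gfi1 Homer1 at 0.895. The patterns with large differences between subsets had the highest values, and the flat or low genes had the lowest.

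After each subset's mean was subtracted, which leaves the spread among the 6 libraries of each subset, the closest genes were different. Ikzf1 was then closest to Phf12 at 0.951, Cebpb to Gde1 at 0.957, Cebpa to Fut4 at 0.920 and Ikzf3 to its relative Ikzf5 at 0.901. Ikzf3 and Ikzf5 both had their lowest cDC1 level in the library coded a172, at 0.225 CPM (9 counts) and 6.45 CPM. How far their r rests on that library was not tested. Among the factors themselves, Zbtb46 and Spi1 had an r of 0.98 over all 18 libraries and 0.34 after centring. Cebpa and Cebpb had 0.80 and 0.71, and Spi1 and Runx1 had 0.66 and -0.74. These are descriptions of 18 libraries that share their subset and hold both genotypes.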

How the data were processed

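RNA-seq libraries of sorted splenic cDC1, cDC2 and pDC were used as the raw counts the authors deposited, 1 table per subset with 6 columns each. Kallisto, DESeq2 and the build GRCm38 appear in the submitters' processing notes without a role or version. Tables listed 17017, 16306 and 16277 genes, 15219 of them in all 3. The authors' normalized tables were scaled separately and were not used. Genotype was not assigned to any column. edgeR 4.0.16 (R 4.3.3, limma 3.58.1) was run on all 18 columns, with TMM factors, its filter at a minimum count of 10 (13539 genes), the robust quasi-likelihood test with subset as the only term, and Benjamini-Hochberg adjustment over all genes tested. DESeq2 1.42.0 was an alternative. Ratios used counts plus 0.5 and two-sided exact permutation tests, 12 in all. The fit was tested on simulated data. Named genes were all 10 factors, per list and comparison at most the 2 called genes with the largest change each way, and up to 3 most alike genes per factor (1 is not reported here); other genes were added as markers. The factors and lists were chosen with earlier results of these data known. Some list genes passed the filter mainly through the subset where they are highest, and they remain in the list counts. Among them were Ikzf4 and Zbtb16 through cDC2, and Vpreb1, Hoxa9 and Rcor2 through pDC. Of the 10, 8 had a RefSeq promoter entry.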

Additional observations from a re-analysis of the deposited data

Results flagged for a closer look

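In 2 of the 30 combinations of factor and subset, the highest library stood apart from the other 5 by more than Dixon's 95% critical value for 6, where chance flags about 1 in 20. Both concern Ikzf1. In cDC1 the library coded a157 had 66.1 CPM (66.06), and the other 5 lay between 39.7 and 49.4 CPM. It was also the highest cDC1 library for Runx1 and Myb. In cDC2 the library coded a161 had 109 CPM (109.17), and the other 5 lay between 81.0 and 90.7 CPM. It was also the highest cDC2 library for Ikzf3 and Runx1. Ikzf1 was called lower in cDC1 than in cDC2 without either library, with log2 fold changes between -1.05 and -0.88 over all 18 omissions.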

How the results depend on the processing

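No paired analysis was possible because no column code gives a replicate number. The number of genes called stayed within 1.5 times under every alternative run (DESeq2 size factors, library totals, DESeq2, no filter, genes of any table, 12 libraries only), and leaving out each library gave 6495 to 6791 for cDC1 against cDC2, 8690 to 9072 for cDC1 against pDC and 8417 to 8855 for cDC2 against pDC. The sign of Zbtb46 between cDC1 and cDC2, which was not called, turned with library totals (-0.00149) and with no filter (-0.00552), and ranged from -0.059 to 0.057 over the omissions. Runx3 and Gfi1, cDC1 against pDC, also not called, ranged from -0.081 to 0.11 and from -0.50 to 0.22. For the ratios the ranges were -0.14 to 0.47 for Ikzf3/Ikzf1, cDC1 against cDC2, -0.65 to -0.36 for Cebpb/Cebpa, cDC1 against pDC, -0.77 to -0.48 for Runx3/Runx1, cDC1 against pDC, and 0.31 to 0.52 for Runx3/Runx1, cDC2 against pDC. The causes were not tested. Adding 0.1 or 1 to the counts changed no call among the 12 ratio comparisons. DESeq2 gave no adjusted p for Gfi1, cDC1 against pDC. With Spearman's rho, 8 of the 10 factors shared fewer than 2 of their 3 most alike genes. Gfi1 rests on at most 27 counts per library and Ikzf3 in cDC1 on at most 45.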

Other observations

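Cebpb in cDC2 fell into separate clusters of libraries. Its levels in the 6 libraries were 35.6, 36.5, 42.2, 86.5, 89.0 and 90.2 CPM. The libraries carry no genotype here, so these are given as values only. Cebpa in the same subset had 3.04, 3.29, 3.32, 5.13, 5.17 and 6.05 CPM. NK cell markers summed to 6.77 to 19.5 CPM in cDC1, 0.373 to 2.82 CPM in cDC2 and 1.05 to 3.55 CPM in pDC. Erythroid markers summed to 2963 to 9333 CPM in cDC1, 3371 to 6023 CPM in cDC2 and 2204 to 6034 CPM in pDC. Basophil and mast cell markers summed to 0.302 to 5.85 CPM in cDC1 and 0.0404 to 1.08 CPM in cDC2, and none of the 5 was listed for pDC, where listed genes had at least 10 counts in all.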
